A study of Mus musculus with 4 samples.

Results

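Plasmacytoid dendritic cells were sought among the leukocytes of the aged kidney by their transcripts, and the cells were chosen by UMI counts of marker genes. A cell barcode was chosen when it carried at least 1 UMI (a unique molecular identifier, which marks 1 captured transcript) of Ptprc, the gene of CD45, and at least 2 UMIs of Siglech. It also needed at least 2 UMIs of Ccr9, Bst2 and Cox6a2 together, 0 UMIs of Cd3d, Cd3e, Cd3g and Ms4a1, and at most 9 of C1qa, C1qb and C1qc. These criteria chose 173 of 50605 kept barcodes. They read measured transcripts, so the levels of these genes, and any contrast of the chosen cells with other cells, are given as descriptions without a test.

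The cells came from kidneys of male C57BL/6 mice, 19 months old, that received BPTES or its vehicle DMSO for 1 month. BPTES is a small molecule that inhibits the breakdown of glutamine. There were 2 libraries for each treatment. For each library, sorted CD45-negative and CD45-positive cells from the same tissue were mixed, 20000 of the former and 9000 of the latter, and run on a droplet 3' chemistry. All groups share the age, the sex and the strain and the vehicle DMSO as the reference, and no young kidney was analysed here. The labels do not say whether each library came from 1 mouse, so the p-values below measure the spread between libraries.

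Plasmacytoid dendritic cells are rare, long-lived leukocytes that patrol blood and lymphoid tissue and enter inflamed organs. They sense the nucleic acids of viruses in endosomes through Toll-like receptors and can then release large amounts of type I interferon. Their identity is set by the transcription factor TCF4 (also called E2-2), which binds E-box motifs, and they keep a secretory, plasma cell-like shape. They resemble conventional dendritic cells in their dependence on FLT3, but present antigen poorly at rest.

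The 4 libraries held 17907 to 20091 barcodes with 249881074 to 297947661 UMIs, of which 11686 to 13130 barcodes passed the filters. Leukocytes, defined as barcodes with Ptprc and at most 5 UMIs of 8 tubule, vessel and stroma genes, numbered 4142 to 4851 per library. The chosen cells were counted among them whatever their kidney genes, and 18 of these exceeded that limit (10, 5, 3 and 0 in BPTES 1, BPTES 2, DMSO 1 and DMSO 2). Between 90 and 114 barcode sequences occurred in both libraries of a pair. The barcodes of 3 chosen cells also occurred in another library, and 0 barcodes were chosen in both libraries of a pair. The chosen cells had a median of 26276 UMIs and the other leukocytes one of 13286.5, so the main shares of cells with a UMI are also given after each cell was thinned to 2000 UMIs.

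Siglech split the chosen cells into groups with many and with few UMIs. A total of 104 cells held 11 or more Siglech UMIs, with a median of 71.5 and a maximum of 146, and 69 cells (39.9%) held 2 to 10. Only 7 cells lay between 11 and 20. Among the cells with 11 or more Siglech UMIs, Ccr9, the receptor for the gut chemokine CCL25, was detected in 99.0% and Bst2, which encodes tetherin, in all. The criteria read both genes, so this is no check of the label. Of the plasmacytoid genes that the criteria did not read, Tcf4 and Runx2 were found in all of these cells, Ly6d in 93.3% and Dntt in 90.4%. Thinned, these shares were 99.0%, 93.3%, 82.7% and 34.6%, against 27.8%, 16.6%, 5.63% and 0.038% in the other leukocytes. The boundary of 11 was set after this distribution was seen.

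Most of the 69 cells with few Siglech UMIs carried genes of conventional dendritic cells, and the label does not hold for these. Of these, 35 had at least 100 UMIs of H2-Ab1, an MHC class II gene, together with Xcr1, the chemokine receptor of conventional type 1 dendritic cells. Their median cell held 370.0 H2-Ab1, 23.0 Xcr1 and 23.0 Clec9a UMIs but 2.0 of Siglech and 0.0 of Cox6a2, and 5 of the 35 cells were cycling. A further 15 cells had at least 100 H2-Ab1 UMIs and 0 of Xcr1, and their median cell held 17.0 UMIs of Cd209a, a lectin of conventional type 2 dendritic cells. The last 19 cells had under 100 H2-Ab1 UMIs. In them Tcf4 had a median of 36.0 UMIs, Runx2 14.0 and Bst2, itself a criterion, 27.0, against 86.0, 37.0 and 66.0 in the cells with 11 or more Siglech UMIs. Other genes set these sets further apart. Irf8 had a median of 3.0 against 62.0 UMIs, Ly6d was detected in 10.5% against 93.3% and Dntt in 0.0% against 90.4%. Zbtb46 was detected in 68.4% of the 19 cells against 4.81%, and Cx3cr1 in 63.2% against 17.3%. The label is therefore open for these 19 cells.

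**Figure D1:**
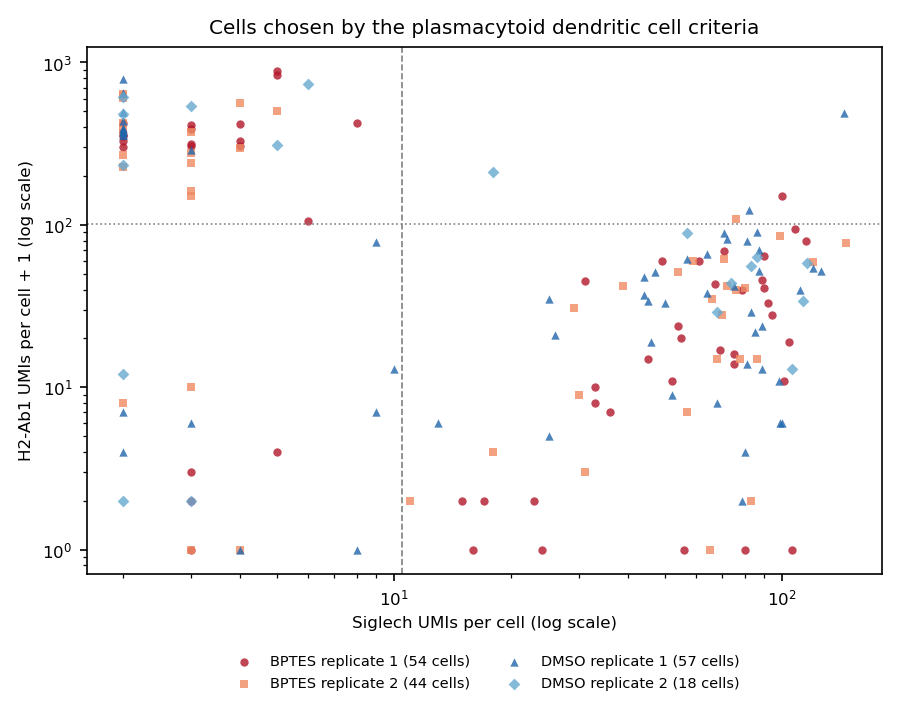
Each point is 1 of the 173 chosen cells, with its Siglech UMIs on the horizontal and its H2-Ab1 UMIs plus 1 on the vertical axis, both logarithmic. The dashed line stands between 10 and 11 Siglech UMIs and the dotted line at 100 H2-Ab1 UMIs. Most of the 104 cells on the right lie below the dotted line, and 50 of the 69 cells on the left lie above the dotted line.

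Low Siglech counts were also found in cells with a conventional type 1 profile outside the criteria. Among 366 cells gated as conventional type 1 dendritic cells by Xcr1 and its partners, 16.1% had a Siglech UMI at a median depth of 33464.5 UMIs. The share was 6.94% in macrophages (median depth 17446 UMIs), 6.21% in conventional type 2 dendritic cells, 5.64% in plasma cells, 3.36% in B cells and 0.089% in monocytes (14667.5 UMIs), so single Siglech UMIs were found in several classes. Just outside the Siglech criterion, 58 cells had 1 Siglech UMI and met the rest, with a median of 352.5 H2-Ab1 UMIs and 20.5 of Xcr1. Just inside it, 32 cells with 2 Siglech UMIs had 370.0 and 14.5. The other criteria removed 40 cells with 11 or more Siglech UMIs, of which 12 had at least 10 UMIs of the C1q genes. Of the 40, 21 were marked as doublets, a mark given to a set number of the highest Scrublet scores in each library. In BPTES 1, BPTES 2, DMSO 1 and DMSO 2 the 40 cells numbered 8, 8, 13 and 11, and the 12 cells 2, 1, 2 and 7.

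Because of this mixture, each test was run on all 173 chosen cells and again on the 104 cells with 11 or more Siglech UMIs, here called the Siglech-high cells, and the text says which set a value is from. By library these were 34 and 24 cells under BPTES and 37 and 9 under DMSO. Levels are in counts per 1e6 UMIs (CPM) of the summed cells of a library.

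**Figure D2:**
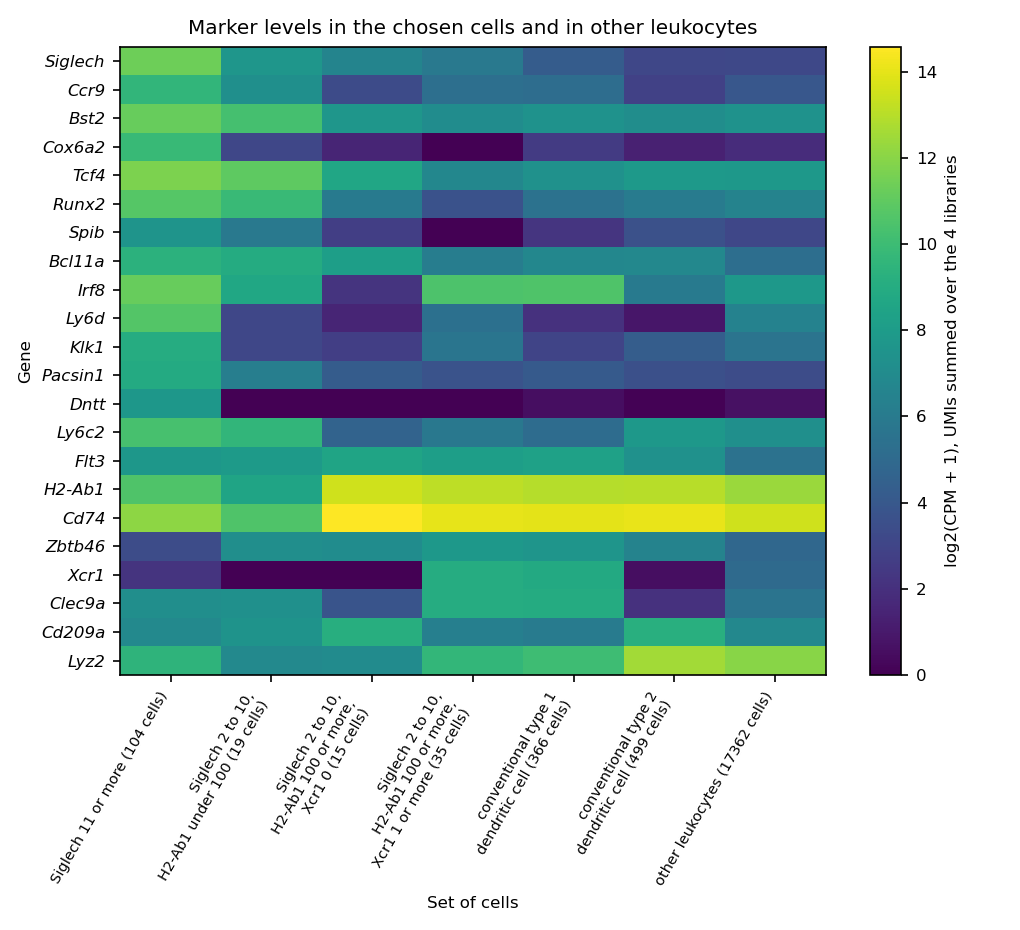
Rows are marker genes and columns are sets of cells, and the colour gives log2(CPM + 1) of UMIs summed over the 4 libraries. The Siglech-high column stands out for Siglech, Cox6a2, Ly6d, Klk1 and Dntt. The sets with 2 to 10 Siglech UMIs and 100 or more H2-Ab1 UMIs have H2-Ab1 at 8791 and 11623 CPM. Conventional type 1 and type 2 dendritic cells have 7974 and 8332 CPM. The sets were chosen by H2-Ab1, so its level there is no check. Zbtb46, which that choice did not read, is at 215 and 137 CPM in them. It is at 193 and 89.8 CPM in conventional type 1 and type 2 cells and 9.39 CPM in the Siglech-high cells.

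The defining transcription factors were far above the other leukocytes. Tcf4 reached 3075 and 3742 CPM in the Siglech-high cells of the BPTES libraries and 3353 and 3311 CPM under DMSO. In the other leukocytes it stood between 201 and 232 CPM, so the groups did not overlap, and the log2 ratio was 3.94 ± 0.19 (SD, n = 4 libraries). Irf8, which supports several dendritic cell lineages, had a ratio of 3.53 ± 0.26 and Runx2, which lets these cells leave the bone marrow, one of 4.25. Summed over the libraries, Irf8 was at 2377 CPM in the Siglech-high cells, 1489 CPM in conventional type 1 and 63.7 CPM in type 2 dendritic cells. Tcf4 was at 3330, 164 and 223 CPM in the same sets. Spib and Bcl11a, partners of Tcf4 in the lineage, had ratios of 4.39 ± 0.14 and 4.10. Of the list of 10 transcription factors, 6 were over 2-fold higher and 0 over 2-fold lower, with a median log2 ratio of 2.54. Over all 9553 genes at 10 CPM or more in the Siglech-high cells or in the other leukocytes the median was 0.07, with 1018 genes (10.7%) over 2-fold higher and 1554 (16.3%) over 2-fold lower. The list counts below include genes under 10 CPM unless said otherwise. Zeb2, Cbfa2t3, Ikzf1 and Stat3 were the 4 within 2-fold. Irf7, the factor that amplifies type I interferon, stood at 139 CPM, with a ratio of 1.55.

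TCF4 binds E-boxes, so the 250 bases upstream of the start of the leading genes were searched for CAGCTG and CAGGTG on either strand, in RefSeq promoters of GRCm38.p6. The 3 sequences below are those of the markers Siglech and Ccr9 and of Havcr1, each 5′ to 3′ on the gene's strand, with capitals marking matches to the searched motifs and no other E-box. They lie at chr7:55767934-55768183, chr9:123766961-123767210 and chr11:46739973-46740222, all on the plus strand.
Siglech: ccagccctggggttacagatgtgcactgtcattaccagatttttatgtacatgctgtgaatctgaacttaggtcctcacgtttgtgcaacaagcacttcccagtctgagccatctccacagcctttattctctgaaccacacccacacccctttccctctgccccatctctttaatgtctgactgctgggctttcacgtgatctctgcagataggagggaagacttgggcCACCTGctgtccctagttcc
Ccr9: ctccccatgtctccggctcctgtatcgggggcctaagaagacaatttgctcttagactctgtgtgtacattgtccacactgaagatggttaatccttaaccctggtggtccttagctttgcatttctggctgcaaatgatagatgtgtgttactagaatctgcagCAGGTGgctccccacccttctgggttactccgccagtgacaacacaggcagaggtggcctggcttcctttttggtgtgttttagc
Havcr1: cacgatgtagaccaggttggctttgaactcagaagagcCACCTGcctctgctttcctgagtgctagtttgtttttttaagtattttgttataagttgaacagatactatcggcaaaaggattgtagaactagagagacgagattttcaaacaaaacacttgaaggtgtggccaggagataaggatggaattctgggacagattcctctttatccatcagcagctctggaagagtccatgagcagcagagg

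Of the 25 leading genes, 18 had a promoter in the RefSeq table, and 5 of these (27.8%) held either motif. Among all 32851 promoters of the same length, 9113 (27.7%) did, so both shares were close.

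The 25 leading genes were those with the highest log2 ratio of all chosen cells over the other leukocytes, among 3052 genes with at least 50 CPM in every library. Of those 3052 genes, 286 (9.37%) were over 2-fold higher. Siglech, an inhibitory receptor of the sialic acid-binding family, was at 2231 and 2771 CPM in the Siglech-high cells under BPTES and at 2809 and 2877 CPM under DMSO, against 5.51 to 10.8 CPM in the other leukocytes. Grm8, a metabotropic glutamate receptor, was at 1197, 1146, 1411 and 1209 CPM in the libraries BPTES 1, BPTES 2, DMSO 1 and DMSO 2, against 2.08 to 5.51 CPM elsewhere. Gria3, a subunit of the AMPA-type glutamate receptor, was at 264, 401, 291 and 259 CPM, against at most 4.98 CPM. Tubule barcodes also carried Gria3, 30.1% of them, at 78.0 CPM, and Grm8 in 0.247%. Both are receptors for glutamate. Both were picked for their high ratio to the other leukocytes, so lying above these in all 4 libraries follows from the choice and is no separate result.

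Cox6a2, the heart and muscle form of a respiratory chain subunit and itself a criterion, was at 740, 1058, 953 and 954 CPM, with a log2 ratio of 8.05 ± 0.34 (SD, n = 4). The common form Cox6a1 had a ratio of 0.12. Dntt, the template-free DNA polymerase of lymphocyte precursors, was at 187, 191, 215 and 323 CPM against 0.28 to 1.06 CPM in the other leukocytes, and was detected in 90.4% of the Siglech-high cells and 0.225% of the others. After thinning these shares were 34.6% and 0.038%. Other leading genes were Cacna1e, a voltage-gated calcium channel subunit, at 758 to 1141 CPM, Ncald, a calcium sensor, at 215 to 367 CPM, and Pacsin1, an endocytosis adaptor, at 380 to 560 CPM.

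Havcr1, better known as the tubule injury marker KIM-1, was at 160, 184, 171 and 140 CPM in the Siglech-high cells and at 0.95 to 2.24 CPM in the other leukocytes. It was detected in 94.2% of the Siglech-high cells, in 1.49% of the other leukocytes and in 1.41% of the tubule barcodes. Upb1 and Ptprf behaved otherwise: 72.2% and 58.4% of the tubule barcodes carried them, beside 95.2% and 92.3% of the Siglech-high cells. Thinned, Havcr1 was found in 26.0% of the Siglech-high cells and 0.271% of the other leukocytes. Of the 25 leaders, 19 were also among the 25 with the highest ratio in the Siglech-high cells.

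**Figure D3:**
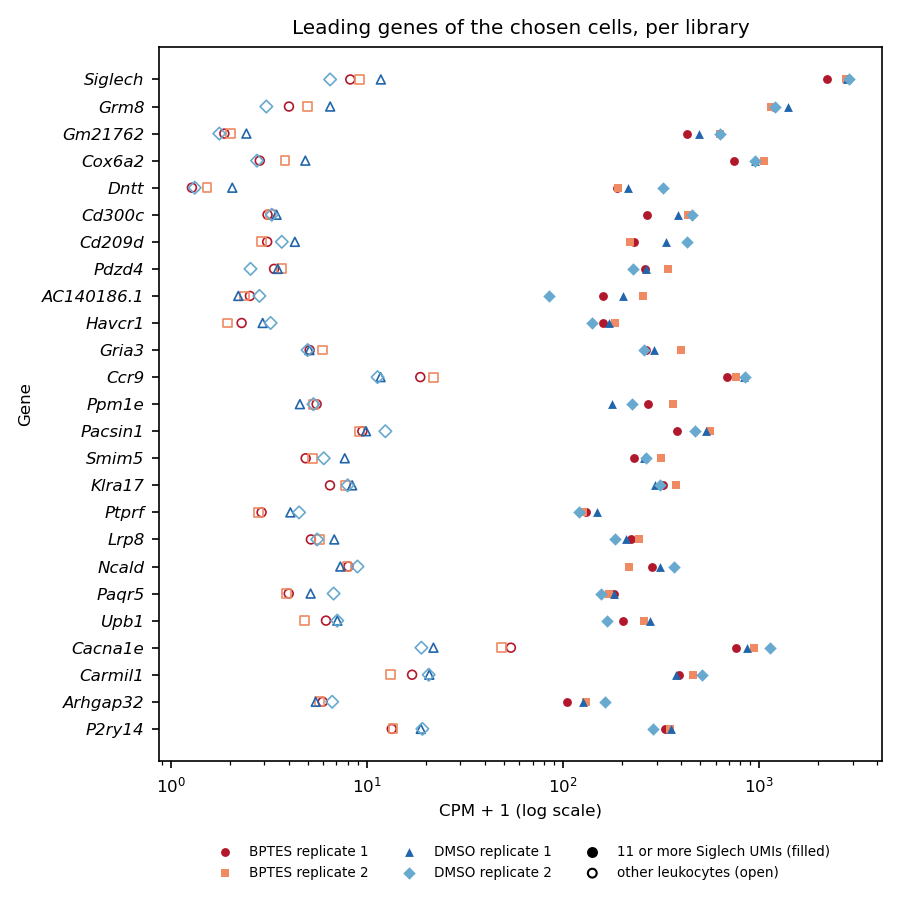
Filled symbols give CPM + 1 (log axis) of the 25 leading genes in the Siglech-high cells of each library, and open symbols the same in the other leukocytes of that library. For each gene the 4 filled symbols lie to the right of the 4 open ones, which follows from the choice of the genes by this ratio in all chosen cells.

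Of 20 surface and other identity genes, 19 were over 2-fold higher than in the other leukocytes, with a median log2 ratio of 3.87, and Cd8a was the exception at -0.02. Ly6d, a marker of the lymphoid-primed route to these cells, was at 1304 to 2280 CPM with a ratio of 4.27, and Atp1b1, a sodium pump subunit, at 641 to 820 CPM with 4.30. Plac8 was at 1716 to 2087 CPM (ratio 2.81), Ly6c2 at 981 to 1755 CPM (3.15), and Rnase6, a secreted ribonuclease, at 932 to 1257 CPM (3.24).

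Some genes were detected in only part of the Siglech-high cells. The shares that follow are not thinned, and the part of depth or of free RNA in them was not tested. In the other leukocytes Klk1 was detected in 12.3% of cells and Cd209a in 8.89%. Klk1, a tissue kallikrein with close relatives that may share its reads, had a median of 8.5 UMIs and a maximum of 77, and was detected in 90 of 104 cells. Cd4 was found in 63.5% of them and Cd8a in 26.9%. Cd209a was detected in 16 of 34, 17 of 24, 22 of 37 and 1 of 9 cells of BPTES 1, BPTES 2, DMSO 1 and DMSO 2. The exact 95% intervals of these shares were 29.8 to 64.9%, 48.9 to 87.4%, 42.1 to 75.2% and 0.281 to 48.3%, so DMSO 2 was lowest, with an interval that overlapped those of BPTES 1 and DMSO 1. Clec9a, otherwise a conventional type 1 gene, had a UMI in 81.7% of the cells, with a log2 ratio of -1.72 to those conventional cells.

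Sensing genes were unevenly represented. Tlr7, the endosomal receptor for single-stranded RNA, was at 153, 150, 160 and 112 CPM, with a ratio of 1.82 ± 0.21 to the other leukocytes and of 4.79 to conventional type 1 cells. Tlr9, the receptor for CpG DNA, was at 11.1, 8.75, 13.5 and 0.00 CPM and was detected in 23.1% of the Siglech-high cells. In the other leukocytes it was at 2.77 to 3.56 CPM and in 5.82% of cells, and the thinned shares were 3.85% and 0.593%. Of 18 matched sensing genes, 4 were over 2-fold higher (Tlr7, Slc15a4, Ctsl and Ctsb) and 4 over 2-fold lower. The higher ones include Slc15a4, a lysosomal histidine transporter needed for TLR7 and TLR9 signalling (ratio 1.61), and the endosomal protease Ctsl (4.30). The lower ones were Pld3 (-2.62), Mb21d1, which encodes the DNA sensor cGAS (-3.07), and the RNA helicases Ddx58 (-3.86) and Ifih1 (-1.40). The median over the list was 0.37.

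Type I interferon transcripts themselves were not detected. All 13 Ifna genes measured, Ifnab and Ifnb1 had 0 UMIs in the 173 chosen cells, which allows at most 0.560 CPM over all of them and 1.08 CPM over the Siglech-high cells, counting error only. A lone cell of DMSO 1 held Ifnl2. Il12a, a subunit of IL-12, was at 8.10, 10.5, 2.08 and 47.9 CPM and was present in 11.5% of the Siglech-high cells, while Il12b and Il6 had 0 UMIs there. The genes that answer to interferon were mixed: 3 of 27 were over 2-fold higher, 14 were over 2-fold lower, and the median was -1.07. Of the 25 at 10 CPM or more in either set of cells, 3 were higher and 13 lower, where the shares over all such genes were 10.7% and 16.3%. The 3 higher were Ly6a, Stat2 (ratio 1.83) and Ifi44, and among the lower were Cxcl10 (-4.65), Rtp4 (-3.89) and Oas2 (-3.68). Ifnar1 and Ifnar2, the receptor for type I interferon, had ratios of 1.08 and 1.25.

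Antigen presentation genes lay between leukocytes with much and with little class II transcript. In summed counts, which cells rich in class II dominate, 0 of 12 genes were over 2-fold higher than in the other leukocytes and 8 over 2-fold lower, with a median of -1.40. By the median cell the order was the opposite: the Siglech-high cells held 32.0 H2-Ab1, 46.0 H2-Aa and 111.5 Cd74 UMIs, and the other leukocytes 2.0, 3.0 and 8.0. The upper quartile of the other leukocytes was 156.0 H2-Ab1 UMIs. Cd74, the invariant chain, was at 3105, 4697, 5092 and 6631 CPM, with a ratio of -1.29, and Cd86, a co-stimulatory ligand, had a ratio of -4.61. Among cytokine receptors, Flt3 was at 194 to 226 CPM (ratio 2.20) and Csf2rb2 at 198 to 259 CPM (4.08), though the latter is a near copy of Csf2rb and reads may be divided between them. Summed over the libraries, Flt3 was at 208 CPM in the Siglech-high cells and at 320 and 165 CPM in conventional type 1 and type 2 cells. Il7r, a receptor of lymphoid cells, had a ratio of 0.83 to all other leukocytes and of 6.62 to conventional type 1 cells. The lymphoid genes Blnk and Iglc3 had ratios of 2.14 and 2.26, the latter varying with an SD of 1.94, while Ebf1 had -6.51 and Rag2 and Igll1 were at 0.

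The secretory pathway was close to the other leukocytes, with a median of 0.15 over 18 genes, 1 over 2-fold higher (Sec61b, a subunit of the protein-conducting channel) and 1 lower (Derl3). Mzb1, a chaperone of antibody-secreting cells, had a ratio of 0.05 to all other leukocytes but of 5.68 and 5.57 to the conventional type 1 and type 2 cells. Cell cycle genes were over 2-fold lower in 11 of 12 cases, and Mki67 was at 0.00, 0.00, 2.08 and 0.00 CPM. Of the enzymes and carriers that handle glutamine and other amino acids, 3 of 24 were over 2-fold higher and 4 lower, with a median of -0.37. Slc38a1, a glutamine carrier, was at 276, 336, 341 and 399 CPM, with a ratio of 1.23. Senescence markers had a median of -0.60, and Cdkn2a, the gene of p16, was at 0.

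Among markers of other cell types in the Siglech-high cells, Pax5, Cd5l, Tnfrsf17 and Ccl22 were at 0. Ms4a1 and the 3 Cd3 genes were at 0 because the criteria required it. Summed over 9 B cell markers, the level was 66.5 to 101 CPM. Sums over the plasma cell list were 455 and 558 CPM under BPTES and 195 and 160 CPM under DMSO. The neutrophil list summed to 1430, 24.5, 119 and 2633 CPM and the tubule list to 3733, 546, 2154 and 419 CPM, in the order BPTES 1, BPTES 2, DMSO 1 and DMSO 2. The limit on kidney genes held for the other leukocytes and not for the chosen cells, so tubule markers cannot be compared between them. All 6 neutrophil markers were over 2-fold lower. The part of these transcripts in the results was not tested. The highest Scrublet scores were marked as doublets up to a number set per library, so the 5.07% of all kept barcodes marked is no measured rate. The mark fell on 14 of the 104 Siglech-high cells (13.5%) and on 19 of all 173 chosen cells. By its own threshold Scrublet marked 173, 99, 149 and 171 of all kept barcodes in BPTES 1, BPTES 2, DMSO 1 and DMSO 2. In that order of libraries, 7 of 34, 0 of 24, 4 of 37 and 3 of 9 Siglech-high cells were marked. The treatment was not tested in the Siglech-high cells without the marked ones.

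The number of these cells was compared between the treatments as a share of leukocytes. BPTES 1 held 54 chosen cells (1.24%, exact 95% interval 0.930 to 1.61%) and BPTES 2 held 44 (1.05%, 0.767 to 1.41%). DMSO 1 held 57 (1.18%, 0.891 to 1.52%) and DMSO 2 held 18 (0.435%, 0.258 to 0.686%). DMSO 2 lay below the other 3 libraries, and DMSO 1 lay between both BPTES libraries, so the groups overlapped. The means were 1.15% ± 0.130 (SD, n = 2) under BPTES and 0.805% ± 0.524 (SD, n = 2) under DMSO.

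The log2 ratio of BPTES over DMSO was 0.48 (SE 0.40), with an adjusted p of 0.445 over 12 leukocyte classes (edgeR's quasi-likelihood test), so no difference was detected. With no limit on kidney genes for any cell it was 0.46. The exact two-sided permutation test of the 4 shares gave p = 0.667 where the smallest value possible is 1 in 3. Without DMSO replicate 2 the log2 ratio was -0.035, and without DMSO replicate 1 it was 1.39 with an adjusted p of 0.0774 (edgeR). The Siglech-high cells alone made up 0.779% and 0.575% of leukocytes under BPTES and 0.763% and 0.217% under DMSO. For these edgeR gave 0.42 on the log2 scale with an adjusted p of 0.587. In DMSO 2 the criteria removed 11 cells with 11 or more Siglech UMIs and kept 9. With the criteria other than Ptprc dropped, such cells numbered 42, 32, 50 and 20 in BPTES 1, BPTES 2, DMSO 1 and DMSO 2. DMSO 2 was thus again the lowest, and the part of the criteria in its low share was not tested.

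**Figure D4:**
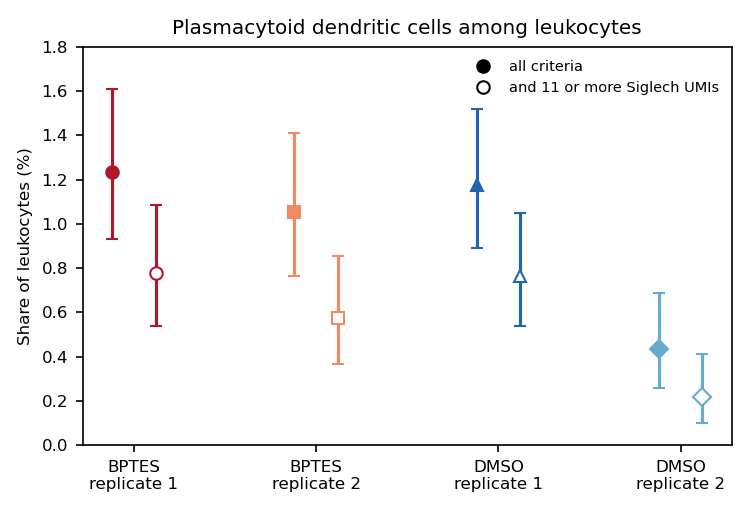
Points give the share of leukocytes (%) in each library for all chosen cells (filled) and for the Siglech-high cells (open), and bars give exact 95% binomial intervals, which cover counting error only. DMSO replicate 2 is the low library at 0.435% and 0.217%, and the other DMSO library lies among the BPTES libraries. In DMSO replicate 2 the criteria removed 11 cells with 11 or more Siglech UMIs and kept 9.

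BPTES was also compared with DMSO gene by gene, on counts summed per library. In all chosen cells 0 of 9731 genes tested (0.0%) passed an adjusted p of 0.05 in edgeR's quasi-likelihood test, and 290 (2.98%) had an unadjusted p under 0.05, 160 higher (1.64%) and 130 lower (1.34%). In the Siglech-high cells 0 of 8136 (0.0%) passed and 197 (2.42%) had an unadjusted p under 0.05, 82 higher (1.01%) and 115 lower (1.41%). DESeq2 called 1 gene in each, Igkv5-48 and Hspa1b. The main fits filter out genes with low counts. With no such filter, edgeR called 28 genes higher and 17 lower in all chosen cells. A lone barcode held 42476 of the 42923 Igkc UMIs of the chosen cells of BPTES 1, and 5231 Jchain UMIs. Without BPTES replicate 2, which leaves BPTES 1 alone in its group, edgeR called Jchain, Igkc and Igkv5-48 in all chosen cells. Without BPTES replicate 1 it called 9 in the Siglech-high cells. On simulated counts of all chosen cells, 92.4% of genes changed by 2 on the log2 scale were recovered and 7.94% of those changed by 1. A change of 2-fold would thus mostly have been missed. The simulation gave every gene the same spread between libraries, a coefficient of variation of 0.218. Recovery of genes that vary more would be lower than these shares. For the Siglech-high cells, with a coefficient of 0.272, no simulation was run.

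The 10 genes with the smallest unadjusted p in all chosen cells were not called by edgeR in this main fit. For them the groups did not overlap, as was the case for 3112 of all 9731 genes tested (32.0%). Klf3 and Rgcc stayed uncalled in all 21 alternatives, and each of the others was called in at least 1. Cd69, an early activation receptor that retains leukocytes in tissue, was at 50.7 and 48.9 CPM under BPTES and 126 and 113 CPM under DMSO, a log2 fold change of -1.24 (SE 0.17). Ppp3cc, a catalytic subunit of calcineurin, was at 16.3 and 14.3 against 44.5 and 47.7 CPM (-1.54, SE 0.27). Ly6a, an interferon-inducible surface protein, was at 223 and 168 against 455 and 371 CPM (-1.06, SE 0.19). Each had an edgeR adjusted p of 1.00. In the Siglech-high cells Cd69, Ppp3cc and Ly6a had log2 fold changes of -1.33, -1.51 and -1.10.

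In all chosen cells the chemokine Ccl4 was at 225 and 328 CPM under BPTES and 520 and 690 CPM under DMSO (-1.11). The phosphatase Phlpp1 was at 98.6 and 93.4 against 161 and 182 CPM (-0.80). Values in the Siglech-high cells were -1.53 (SE 1.00) for Ccl4 and -1.42 (SE 0.40) for Phlpp1. The other 5 were higher under BPTES: the co-chaperone Dnajb1 (1.22), Rgcc (1.68), the zinc finger gene Klf3 (0.79), Hspa1a (0.80) and Gm42418 (0.52). Gm42418, a gene model that overlaps the ribosomal RNA repeat and can collect ribosomal RNA, was at 42960 and 46200 against 30850 and 32400 CPM. In conventional dendritic cells its log2 fold change was 0.30, with an edgeR adjusted p of 0.179. Its part in the other differences was not tested. Rgcc overlapped between the groups in the Siglech-high cells, at 0.64 (SE 0.55). The other leukocytes had Dnajb1 at 80.3 and 106 CPM under BPTES against 50.1 and 52.9 CPM under DMSO. They had Klf3 at 167 and 176 against 120 and 117 CPM, and Ccl4 at 473 and 394 against 634 and 684 CPM. Phlpp1, Rgcc, Hspa1a and Gm42418 also kept their direction there. Ly6a and Ppp3cc were higher under BPTES there, and Cd69 overlapped.

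Heat shock genes had the smallest p in the Siglech-high cells. Hspa1a, an inducible chaperone, had 128 and 72 UMIs (130 and 126 CPM) under BPTES and 14 and 6 UMIs (14.6 and 23.9 CPM) under DMSO, a log2 fold change of 2.88 (SE 0.31, edgeR adjusted p = 0.183). Its near copy Hspa1b, with which reads may be exchanged, was at 145 and 192 against 24 and 19.9 CPM (2.87, SE 0.29, edgeR adjusted p = 0.183). Smaller differences were found in all chosen cells, with log2 fold changes of 0.80 for Hspa1a and 0.74 for Hspa1b (223 and 302 against 155 and 164 CPM), each with an edgeR adjusted p of 1.00. DESeq2 gave Hspa1b an adjusted p of 0.00588, and without BPTES replicate 1 edgeR gave log2 fold changes of 3.07 for Hspa1b (adjusted p = 0.00271) and 2.84 for Hspa1a (adjusted p = 0.0122). The groups did not overlap for either gene, as for 2458 of all 8136 genes tested (30.2%). Hspa8, a constitutive relative, was at 788 and 1205 against 541 and 551 CPM (0.87). Without BPTES replicate 1, edgeR also called Hspa8 (1.15, adjusted p = 0.0168) and Hsph1 (3.24, adjusted p = 0.0091), and without BPTES replicate 2 it called 0 genes in these cells.

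These genes belong to the list of 16 immediate early and dissociation genes, of which edgeR called 0 and DESeq2 called Hspa1b in the Siglech-high cells. Over all chosen cells 2 had an unadjusted p under 0.05 and the median was 0.12. In the Siglech-high cells 3 had such a p, all heat shock genes, and the median over the list was -0.16, with 6 genes above 0 and 10 below. Over all 8136 genes the median was 0.00. The list also holds genes known to respond to enzymatic digestion, and the part of digestion in the difference was not tested. Conventional dendritic cells of the same libraries had log2 fold changes of 0.32 for Hspa1a (edgeR adjusted p = 0.252) and 0.42 for Hspa1b (edgeR adjusted p = 0.330). The other leukocytes had Hspa1a at 384.5 and 470.4 CPM under BPTES and 295.1 and 242.5 CPM under DMSO. They had Hspa1b at 397 and 501.5 against 292.9 and 228.8 CPM.

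MHC class II genes had lower values under BPTES in the Siglech-high cells, but edgeR called 0 in the 4 libraries. H2-Ab1 was at 1015 and 1419 CPM under BPTES and at 1906 and 2354 CPM under DMSO, and H2-Eb1 at 604 and 908 against 1449 and 1317 CPM. The groups did not overlap for either, nor for 30.2% of all genes tested. The log2 fold changes were -0.80 (SE 0.21) and -0.87 (SE 0.22), with edgeR unadjusted p of 0.0069 and 0.0059. Ciita, the master activator of these genes, was at 61.7 and 77.0 against 127 and 120 CPM. Of 11 antigen presentation genes tested, 11 had a fold change below 0 and 5 an unadjusted p under 0.05 (H2-Aa, H2-Ab1, H2-Eb1, Cd74 and Ciita), where 1.41% of all 8136 genes were lower at that p, with a median of -0.46 where that over all genes was 0.00. In all chosen cells H2-Ab1 had -0.13 and H2-Eb1 -0.23, the median was -0.18 and 0 of 12 had an unadjusted p under 0.05. The list's sum was also lower under BPTES in the other leukocytes, at 28573 and 25660 CPM against 35819 and 36442 CPM.

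**Figure D5:**
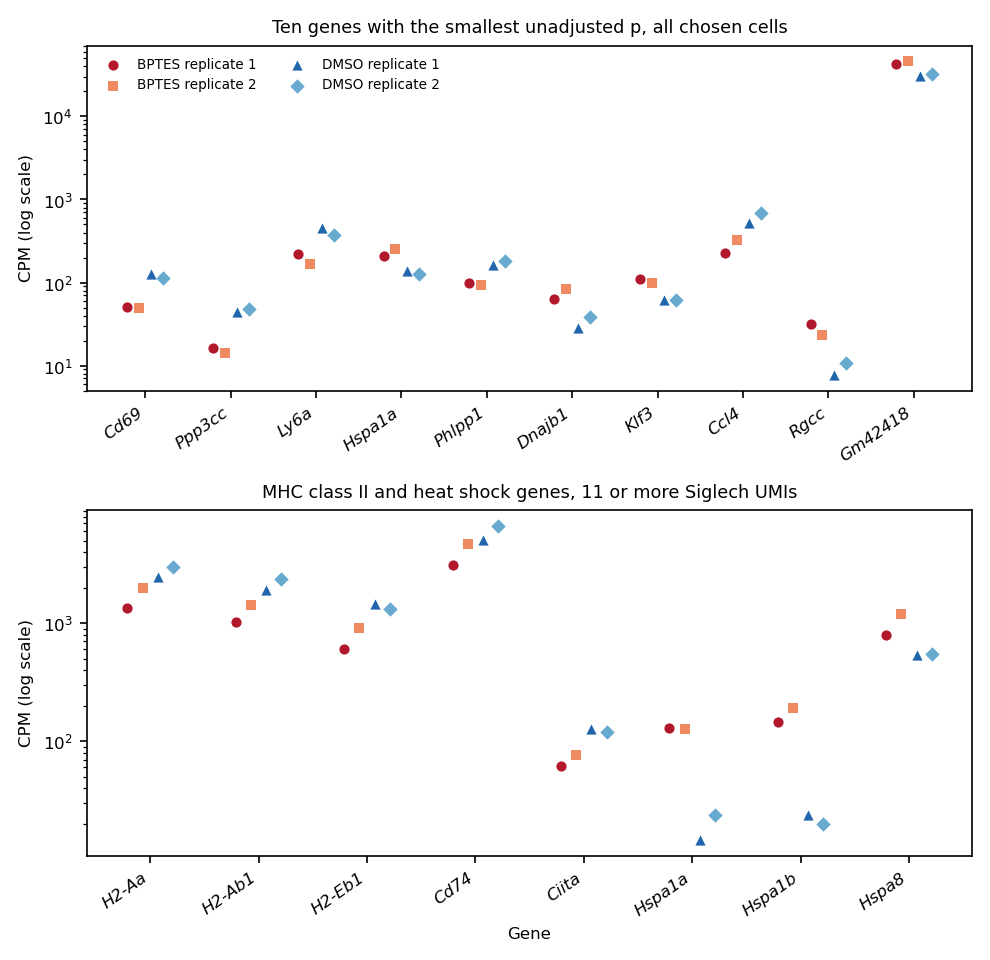
Each symbol is the CPM (log axis) of a gene in 1 library, for the 10 genes with the smallest unadjusted p in all chosen cells (top) and for MHC class II and heat shock genes in the Siglech-high cells (bottom). The BPTES and DMSO libraries separate for each of the 10 genes, and Hspa1a and Hspa1b stand at 126 to 192 CPM under BPTES and 14.6 to 24 CPM under DMSO.

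Immunoglobulin transcripts were also compared. In the Siglech-high cells Igkc was at 309 and 343 CPM under BPTES and 117 and 108 CPM under DMSO, a log2 fold change of 1.53 (SE 0.19, edgeR adjusted p = 0.334). Igha was at 79.9 and 143 against 14.6 and 3.99 CPM. Iglc2, a lambda light chain, went the other way, at 6.07 and 15.7 CPM under BPTES and 45.9 and 31.9 CPM under DMSO (-1.95). Of 4 plasma cell markers tested, edgeR called 0 in either set of cells with the 4 libraries and the filter on low counts. Of these, 3 were above 0 and 1 below in the Siglech-high cells. In the other leukocytes, which include plasma cells, the plasma cell list summed to 53685 and 83774 CPM under BPTES and 7215 and 10955 CPM under DMSO, and Igkc had a log2 fold change of 2.35 in conventional dendritic cells. The part of free plasma cell RNA was not tested. In all chosen cells a barcode of BPTES 1 alone held 42476 Igkc and 5231 Jchain UMIs among 120323. Leaving it out also gave 0 genes called by edgeR. Without BPTES replicate 2 and with that barcode kept, edgeR called Jchain and Igkc in all chosen cells. It also called both with the C1q criterion dropped, which makes a larger set of 79 and 65 cells under BPTES and 80 and 32 under DMSO. Without BPTES replicate 1 it called Igha (3.60) and Igkc (1.60) in the Siglech-high cells, with adjusted p of 0.0091 and 0.0389.

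With the 4 libraries and the filter on low counts, edgeR called 0 genes of the plasmacytoid identity lists between the treatments. Tcf4 had a log2 fold change of 0.04 (SE 0.15) in the Siglech-high cells, and Irf8 and Spib had 0.04 and 0.01. Over all chosen cells these were -0.08, -0.03 and -0.11. In the Siglech-high cells, of the 10 transcription factors 0 were called and 1 had an unadjusted p under 0.05 (Ikzf1, 0.51), and of the 20 identity genes again 0 and 1 (Cd209d, -0.75). The same counts in all chosen cells were 1 (Ikzf1, 0.37) and 2 (Cd209d, -0.55, and Rnase6, -0.32). Cd209d, a lectin among the leaders, was at 230 and 219 CPM under BPTES and 336 and 427 CPM under DMSO. Csf2rb, the common subunit of the GM-CSF and IL-3 receptors, was at 218 and 208 against 269 and 319 CPM (-0.45). Siglech itself had -0.18 (SE 0.16), given as a description since it is a criterion. For none of these does the test show that the treatments act alike.

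Among 18 genes of glutamine and amino acid handling tested in the Siglech-high cells, 0 were called and 0 had an unadjusted p under 0.05, with 11 above 0, 7 below and a median of 0.10. The glutamine carrier Slc1a5 was at 61.7 and 42.0 against 33.3 and 12.0 CPM, a log2 fold change of 1.02 (SE 0.47). Over all chosen cells 0 of 19 were called and the median was 0.13, with 0.31 for Slc1a5. In all chosen cells Slc38a1 was at 221 and 200 against 270 and 278 CPM (-0.35, unadjusted p = 0.0420 in edgeR). Interferon response genes had a median of 0.07 over 17 genes in the Siglech-high cells and of -0.22 over 20 in all chosen cells, with 0 called in either. Secretory pathway genes had medians of -0.13 and 0.05.

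Whether the treatment acted differently in these cells and in conventional dendritic cells was tested as an interaction with library as a block. Beside all chosen cells there were 366 cells of type 1 and 499 of type 2. For the Siglech-high test the cells with few Siglech UMIs were gated anew. In BPTES 1, BPTES 2, DMSO 1 and DMSO 2 this gave 104, 88, 113 and 103 cells of type 1. Those of type 2 were 112, 122, 191 and 84. In edgeR's quasi-likelihood test 0 of 11741 genes (0.0%) passed for all chosen cells and 353 (3.01%) had an unadjusted p under 0.05, 174 higher (1.48%) and 179 lower (1.52%). For the Siglech-high cells 0 of 11908 passed and 244 (2.05%) had an unadjusted p under 0.05, 101 higher (0.848%) and 143 lower (1.2%). Hspa1b had an interaction of 2.56 (SE 0.30, edgeR adjusted p = 0.0859) in the Siglech-high cells. Cd69 had an interaction of -1.73 (SE 0.43, edgeR adjusted p = 1.00): its log2 fold change was -1.24 in the chosen cells and 0.43 in the conventional ones. With the 4 libraries and the filter on low counts, no difference from the conventional cells in the response to BPTES was therefore called for either set. Without that filter, the same test of all chosen cells called 21 genes higher and 38 lower. The Siglech-high cells held 2770066 of the 5356119 UMIs of all chosen cells. The rest came from cells with few Siglech UMIs, most of them with conventional dendritic cell genes. The test on all chosen cells is thus no clean contrast of the cell types. Without BPTES replicate 1 or 2 the same test called 19 or 18 genes, and for the Siglech-high cells 112 or 58. Without BPTES replicate 2, the 58 included H2-Eb1 (-0.85), H2-Ab1 (-0.80), H2-Aa (-0.73) and Cd74 (-0.65), with edgeR adjusted p of 0.0023 to 0.0122. They also included the identity gene Ly6d (-3.70), which was at only 3.23 and 0.868 CPM in the conventional type 1 and type 2 cells gated beside all chosen cells. Among the Siglech-high libraries Ly6d spanned less than 2-fold, so this value is no loss of Ly6d in the Siglech-high cells. Calls on genes of the criteria are not read. Without BPTES replicate 1, Cd209d (-1.59, edgeR adjusted p = 0.0122) was among the 112. Hspa1a and Hspa1b were among the calls of both, at 2.33 to 2.79. The directions otherwise differed: most Siglech-high calls were lower without BPTES replicate 1, and most were higher without BPTES replicate 2.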

How the data were processed

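Single-cell libraries of aged mouse kidney were used, 2 from the BPTES group and 2 from the DMSO group. The deposited matrices hold raw UMI counts per gene and barcode (31054 features), made by the authors with Cell Ranger 8.0.1 on mm10, per the submitters' processing notes. Barcodes were kept with at least 500 UMIs, 300 genes and at most 50% mitochondrial UMIs. Doublets were kept, since the criteria name no doublet filter; Scrublet (0.4% per 1000 barcodes) was an alternative. UMI counts were summed per library, and a library's chosen cells held 565623 to 1775318 UMIs. These were tested with edgeR 4.0.16 (quasi-likelihood, robust, TMM, filterByExpr, Benjamini-Hochberg, threshold 0.05), with DESeq2 1.42.0 as an alternative, after a check on simulated counts. Numbers of cells were tested in the same way over 12 leukocyte classes. Log2 ratios to other leukocytes are log2 of CPM + 1 in each library, averaged over the 4, which understates ratios of low genes. Intervals are Clopper-Pearson at 95%.

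The rule for named genes took, from each of 27 lists, up to 6 with the highest mean CPM and those of a known defining role, then the 25 leading genes by ratio and the 10 with the smallest unadjusted p for the treatment. Genes named beyond these, such as list members far below the other leukocytes, Igkv5-48 and Il12a, were chosen after their values were seen. The chosen cells and lists were set with earlier results of these data known. Of 319 list symbols 316 were found; Sting1 and Cgas appear under older symbols. Some genes of the lists are not reported here.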

Additional observations from a re-analysis of the deposited data

How the results depend on the processing

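The share of leukocytes kept its direction and stayed above the threshold of the adjusted p in 20 of 22 alternatives. It reversed without DMSO replicate 2, to a log2 ratio of -0.035 in all chosen cells and -0.17 in the Siglech-high cells. Leaving out each library gave -0.035 to 1.39, and -0.17 to 1.63 in the Siglech-high cells. With the replicate number as a block it was 0.56; the replicate numbers were not found to pair the libraries (correlation of deviations 0.03 over 9731 genes), and the block called 0 genes for the treatment and 0 for the interaction. Genes called for BPTES against DMSO were 0 in the main test and 0 to 3 with each library left out (Jchain, Igkc and Igkv5-48 without BPTES replicate 2). They were 45 without the filter on low counts (28 higher, 17 lower), 2 without the C1q criterion, and 1 by DESeq2 in all chosen cells. In the Siglech-high cells they were 1 by DESeq2 and 0 to 9 with each library left out, where BPTES replicate 1 was the library that mattered. The interaction called 59 genes without the filter, 0 to 19 with each library left out, and in the Siglech-high cells 112 without BPTES replicate 1, 58 without BPTES replicate 2 and 0 without either DMSO library. These fits assume that the single library remaining in a group varies as the other group does. The 286 genes over 2-fold higher than in other leukocytes became 485 for the Siglech-high cells and 450 against B cells. Of 210 alternative values of the 10 named treatment genes, 201 stayed on the same side of the threshold, 9 passed it and 0 reversed. The causes of these changes were not tested. The 11-UMI boundary, the dropped criteria and the fit without the Igkc-rich barcode were chosen after seeing the data. Depth limits the low genes: in DMSO replicate 2, 0 UMIs in the 9 Siglech-high cells allow up to 12.0 CPM.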
